A study of Homo sapiens with 4 samples.

Results

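The genes described here carry the signals of TGF-beta, activins and bone morphogenetic proteins (BMPs) from the secreted ligand to the nucleus. They were taken from a named list of 46 genes, and all 46 were found among the 19626 genes of the tables. No limit on a measured value set the list, but it was chosen with earlier results of these data known. RNA was sequenced from ES-2, an established human ovarian clear cell carcinoma cell line that carries a fusion of YAP1 with MAML2 (the YM fusion). Cells were infected with pLKO.1 lentivirus that expressed either a non-targeting shRNA (shCtl, 2 libraries) or an shRNA against MAML2 (shM2-3, 2 libraries), which acts on MAML2 and on the fusion alike. Infections lasted 8 h on consecutive days, and RNA was taken 96 h after the first of them, per the labels, while the study's methods give shorter times and more days of infection. Both groups were grown in the same serum-containing medium, and the comparison asks which genes depend on the fusion transcript. It rests on 1 cell line and 1 shRNA, so the fusion, native MAML2 and effects of the shRNA sequence on other genes cannot be told apart.

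TGF-beta ligands are secreted in a latent form that is bound to latent TGF-beta binding proteins in the matrix, and they signal once released. Active ligands join type II and type I receptor kinases, which phosphorylate SMAD2 and SMAD3 for TGF-beta and activin, or SMAD1, SMAD5 and SMAD9 for BMPs. These SMADs enter the nucleus with SMAD4, where they control targets that include the inhibitory SMADs, SKIL and the ID genes. YAP1 acts through TEAD factors at other sites on DNA and shares a number of target genes with the SMADs.

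Levels are given as RPKM, the deposited read numbers scaled by gene length and library size, and differences as log2 fold changes of shM2-3 over shCtl with their standard errors (SE), from edgeR's quasi-likelihood test on counts. Calls of lower or higher required an adjusted p (Benjamini-Hochberg) of 0.05 or less together with a fold change of 2 or more. The test covered the 12157 genes that exceeded 1 RPKM in any library. Library totals ranged from 20051083 to 20423873 counts for shCtl and from 21813798 to 23978660 for shM2-3. MAML2 stood at 8.61 and 8.26 RPKM in shCtl and at 3.11 and 3.0 in shM2-3, a log2 change of -1.40 (SE 0.0688, adjusted p = 5.18e-10). YAP1, part of which is in the fusion transcript, was higher, at 82.4 ± 0.865 against 106 ± 0.317 RPKM (SD, n = 2), a log2 change of 0.42 by edgeR (adjusted p = 1.79e-07). The keratins KRT7, KRT8 and KRT18 were the only 3 of 10 epithelial and Müllerian markers above 1 RPKM, and the list summed to 637 to 638 RPKM in shCtl and 313 to 317 in shM2-3. EPCAM, CDH1 and PAX8, which mark many ovarian carcinomas, were all below 1 RPKM. Of the fibroblast markers, 1 of 6 was above 1 RPKM (PDGFRA), with sums of 7.95 to 8.01 in shCtl and 25.1 to 25.7 in shM2-3. The defining leukocyte genes PTPRC and CD3E were at 0 to 3 counts in every library, while CD68 and LYZ exceeded 1 RPKM, and the 5 leukocyte genes read summed to 57.4 to 58.3 and 40.0 to 41.1. TIE1, CDH5 and PECAM1 were the 3 of 5 endothelial markers above 1 RPKM, with sums of 75.0 to 77.6 and 63.1 to 63.5, and VWF and KDR were below 1. The part of these shifts in the results was not tested, and in RNA from whole cultures fewer cells of a type and less RNA per cell cannot be told apart.

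Of the 46 genes, 41 passed the RPKM limit and were tested. Among them 5 were called lower (TGFB2, BMP6, NOG, FST and SMAD9), where 8.93% of all genes tested were called lower. The genes called higher were 16, where 9.24% of all genes tested were called higher. With the adjusted p alone, 8 were lower and 27 higher, against 36.4% and 36.3% of all genes tested, and 6 did not pass. The median log2 change was 0.79 over the 41 genes and -0.00 over all genes tested. Low genes that reached the limit in 1 group alone were more likely to differ by the way they entered the test, and of the 36 genes with a library above 1 RPKM in each group, 2 were called lower and 15 higher. The shares called among all 11066 genes with such libraries were not computed.

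**Figure D1:**
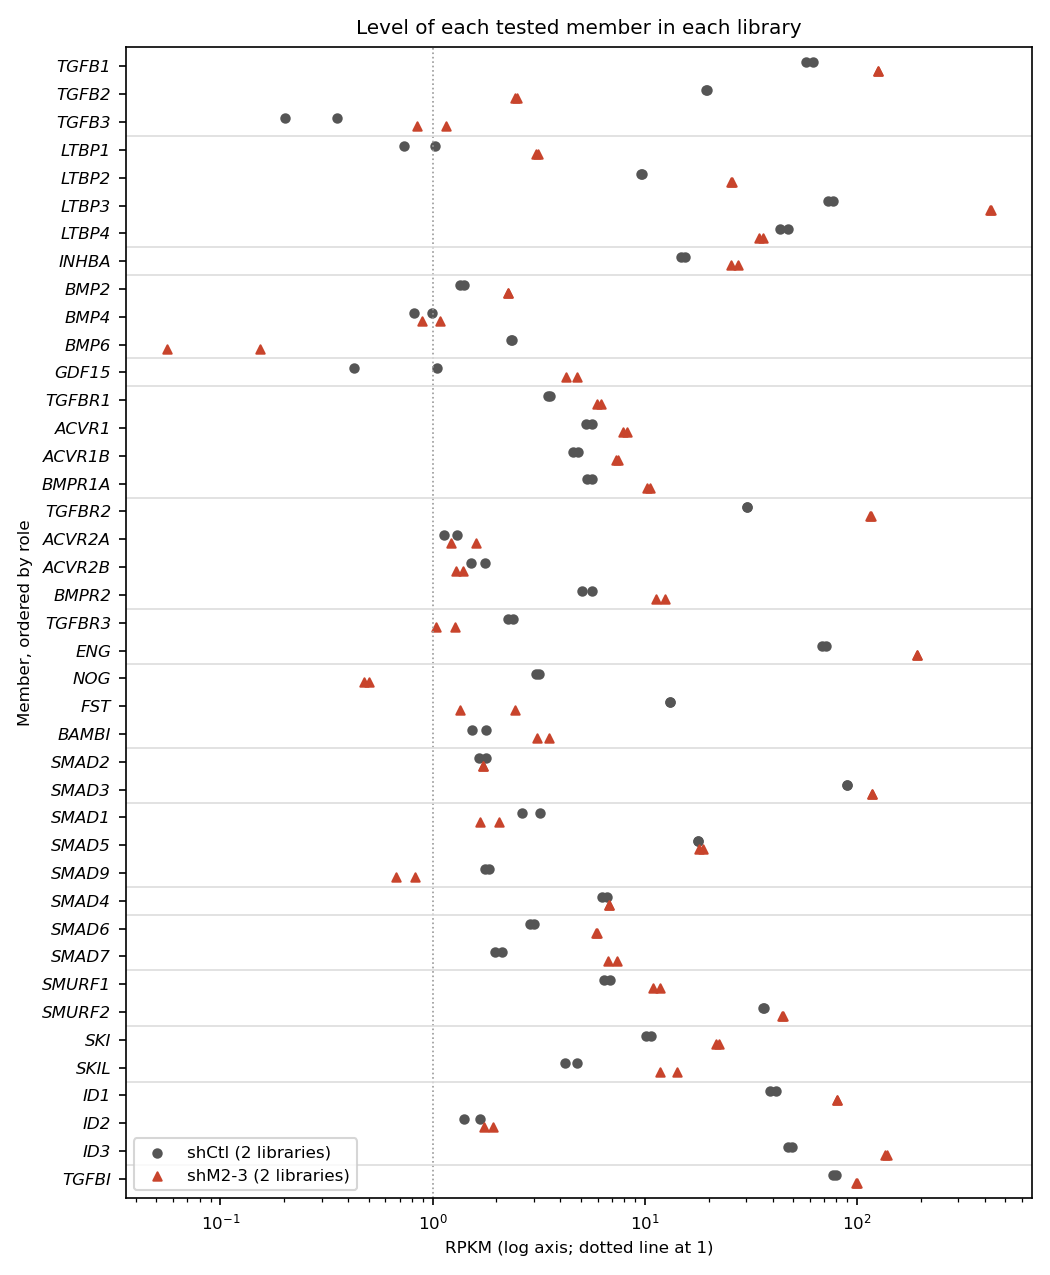
RPKM on a log axis of the 41 tested genes, ordered by role, in the 2 shCtl libraries (grey circles) and the 2 shM2-3 libraries (red triangles), with a dotted line at 1 RPKM. LTBP3, ENG, ID3 and TGFBR2 lie further right in shM2-3, TGFB2, FST, NOG and BMP6 further left, and the libraries of a group lie close together for most genes.

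Promoter sequence was read for 41 of the 46 genes from RefSeq (GRCh38.p14), in windows of 300 bases around the start site, of which only bases before the start are printed. The window of TGFB2 held the core of the TEAD motif, GGAATG, on either strand, as did those of ACVR2B, BMPR1A, GDF15, ID1, ID4, LTBP4 and SMAD5, 8 of 41, beside 14% of 27305 promoters. The SMAD palindrome GTCTAGAC was found in 1 of the 41, SMAD6, and in 0.201% of all promoters. The AP-1 motif TGANTCA was in FST and SMAD1, and in 7.76% of all promoters. The GC-rich letters GGCGCC, described for SMAD1 and SMAD5, were in 14 of 41, SKIL and BMPR2 among them, and in 19% of all promoters. A match of letters is a description and not a site bound in these cells. The stretches below belong to genes whose RNA changed and are written 5′ to 3′ on the gene's strand, with the motif in capitals. They are TGFB2 at chr1:218345121-218345186 (its motif on the other strand), GDF15 at chr19:18385908-18385963, SMAD6 at chr15:66702194-66702235 and FST at chr5:53480439-53480505, all on the plus strand.
TGFB2: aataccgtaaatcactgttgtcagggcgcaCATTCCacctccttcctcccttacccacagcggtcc
GDF15: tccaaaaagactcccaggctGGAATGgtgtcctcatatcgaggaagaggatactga
SMAD6: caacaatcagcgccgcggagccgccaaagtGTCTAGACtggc
FST: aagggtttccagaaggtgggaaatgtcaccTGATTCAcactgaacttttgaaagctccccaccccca

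The TGF-beta ligands moved in opposite directions. TGFB2 (chr1:218345336-218444619, plus strand, hg38) stood at 19.6 and 19.5 RPKM in shCtl and at 2.44 and 2.49 in shM2-3, a log2 change of -2.92 (SE 0.061, adjusted p = 8.27e-14), or 7.57-fold lower. TGFB1 (chr19:41301587-41353922, minus strand) was at 57.2 and 62.3 RPKM and at 125 in each shM2-3 library. Its log2 change was 1.13 (SE 0.046, adjusted p = 6.99e-11), and the groups were far apart for both ligands. TGFB3 had few reads, its shCtl counts being 33 and 19 and its shM2-3 counts 132 and 87. It was higher by 1.92 on the log2 scale (SE 0.341, adjusted p = 0.000193), although its RPKM reached 1 in a single shM2-3 library (0.355, 0.201, 1.16 and 0.845), and without that library, shM2-3 replicate 1, it was not tested. Of the summed RPKM of the 3 ligands, TGFB2 made up 25.4% and 23.8% in shCtl and 1.90% and 1.94% in shM2-3, while TGFB1 went from 74.1% and 76.0% to 97.2% and 97.4%. TGFB2 shares annotated exon sequence with TGFB2-AS1 on the other strand, which was at 0.926 ± 0.112 (SD, n = 2) and 0.0355 ± 0.0503 RPKM. TGFB1 likewise overlaps HNRNPUL1, whose log2 change was -0.02 (SE 0.0459). The libraries did not keep strand, so reads from such overlaps cannot be assigned with certainty.

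Latent TGF-beta binding proteins, which hold the latent ligand in the matrix, were higher for 3 of 4 genes. LTBP3 (chr11:65538559-65558930, minus strand) was at 72.7 and 77.2 RPKM in shCtl and at 422 and 427 in shM2-3, a log2 change of 2.57 (SE 0.0392, adjusted p = 5.43e-15), or 5.93-fold. It was the most abundant of the 46 genes per length in shM2-3 and the 3rd in shCtl, and its share of the summed LTBP RPKM was 57.3% and 57.2% in shCtl against 86.7% and 87.1% in shM2-3. LTBP2 was at 9.68 and 9.65 RPKM against 25.5 and 25.7, with a log2 change of 1.47 (SE 0.0435, adjusted p = 2.56e-12). LTBP1 was at 1.03 and 0.733 RPKM against 3.14 and 3.07, with a log2 change of 1.88 (SE 0.142, adjusted p = 4.6e-08). LTBP4 moved the other way by less than the fold limit, from 43.4 and 47.5 RPKM to 35.9 and 34.7, a log2 change of -0.30 (SE 0.0473, adjusted p = 7.1e-05). The groups of all 4 genes were apart, as were those of 42 of the 46 genes, and of the 4 LTBP4 alone was lower in shM2-3. The share of all genes in the tables with groups apart was not computed.

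The activin and BMP ligands were at low levels apart from INHBA, which encodes the subunit of activin A. INHBA was at 15.4 and 14.8 RPKM in shCtl and at 25.5 and 27.5 in shM2-3, a log2 change of 0.87 (SE 0.0515, adjusted p = 3.59e-09) that stayed under the fold limit. The other subunits, INHBB and INHBE, had 4 to 11 and 9 to 44 counts a library and were not tested. BMP6 (chr6:7726099-7881728, plus strand) fell from 211 counts in each shCtl library to 6 and 15 in shM2-3, or from 2.38 and 2.34 RPKM to 0.056 and 0.153. Its log2 change was -4.45 (SE 0.321, adjusted p = 2.96e-08), 21.8-fold lower, and leaving out shM2-3 replicate 1 gave -3.86 and leaving out replicate 2 of that group -5.32. This was the largest change, in either direction, of the 41 genes tested, on counts that were small in shM2-3. BMP6 passed the RPKM limit in shCtl only, and so entered the test through the group where it was high. TXNDC5, which overlaps BMP6 on the other strand and was at 188 ± 5.53 RPKM in shCtl (SD, n = 2), had a log2 change of 0.28 (SE 0.037). BMP2 was at 1.41 and 1.34 RPKM against 2.26 in each shM2-3 library, a log2 change of 0.79 (SE 0.165, adjusted p = 0.000749) under the fold limit. For BMP4 the groups overlapped, with 0.994 and 0.814 RPKM in shCtl and 0.894 and 1.09 in shM2-3 (log2 change 0.20, SE 0.297, adjusted p = 0.561), and BMP7 had 0 to 2 counts. BMP6 made up 49.6% and 51.9% of the summed RPKM of BMP2, BMP4, BMP6 and BMP7 in shCtl and 1.74% and 4.36% in shM2-3.

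GDF15, a distant member of the ligand family that rises in stressed cells and signals through a receptor of its own, was higher. Its counts were 12 and 30 in shCtl against 146 and 149 in shM2-3, or 0.427 and 1.05 RPKM against 4.25 and 4.79. The log2 change was 2.67 (SE 0.337, adjusted p = 8.16e-06), a 6.36-fold difference that was larger than the unequal shCtl values, and it was 3.45 without shCtl replicate 2.

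Receptors of the named list were higher where they passed the adjusted p, with the co-receptor TGFBR3 as the exception. Outside that list, 3 other receptors and co-receptors were tested. RGMB was lower (log2 change -0.89, SE 0.0457, adjusted p = 8.31e-10), and NEO1 and CD109 were higher (log2 changes 1.07 and 1.61). TGFBR2 (chr3:30606601-30694142, plus strand), the type II receptor that binds TGF-beta, was at 30.4 and 30.3 RPKM in shCtl and at 116 and 115 in shM2-3. Its log2 change of 1.99 (SE 0.04, adjusted p = 5.65e-14), or 3.98-fold, was the largest among the receptors. Its partner TGFBR1, the type I receptor, rose by less, from 3.56 and 3.49 RPKM to 6.23 and 5.95, a log2 change of 0.86 (SE 0.0738, adjusted p = 1.83e-07) under the fold limit. BMPR2, the type II receptor for BMPs, was at 5.08 and 5.62 RPKM against 12.4 and 11.3, a log2 change of 1.21 (SE 0.057, adjusted p = 3.27e-10). BMPR1A, a type I receptor for BMPs, lay at the fold limit. It was at 5.34 and 5.65 RPKM against 10.2 and 10.6, a log2 change of 0.98 (SE 0.0784, adjusted p = 8.05e-08) that was 1.02 and past the limit without shCtl replicate 2 or without shM2-3 replicate 1. The type I receptors ACVR1 and ACVR1B, for BMPs and activins, had log2 changes of 0.64 (SE 0.0777) and 0.71 (SE 0.0762) and passed the adjusted p. For the activin type II receptors the test was not passed, and ACVR2A had 1.13 and 1.31 RPKM against 1.22 and 1.60, with overlapping groups (log2 change 0.28, SE 0.179, adjusted p = 0.179). ACVR2B was at 1.52 and 1.76 against 1.29 and 1.39 RPKM (log2 change -0.23, SE 0.105, adjusted p = 0.0676).

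The co-receptors differed in direction. ENG (endoglin, chr9:127815013-127854658, minus strand), an accessory receptor best known from endothelial cells, was at 68.3 and 71.3 RPKM in shCtl and at 191 and 192 in shM2-3. Its log2 change was 1.52 (SE 0.0396, adjusted p = 6.77e-13). Of the endothelial markers above 1 RPKM, PECAM1 was higher (log2 change 5.07, adjusted p = 2.09e-08), at 0.0376 and 0.0308 RPKM against 1.31 and 0.923. It passed the RPKM limit in shM2-3 replicate 1 only, and so entered the test through the group where it was high. CDH5 was lower (log2 change -1.17), and TIE1, the most abundant of them, was lower by less (log2 change -0.13). The part of these markers in the ENG result was not tested. TGFBR3 (betaglycan), which presents TGFB2 to the signalling receptors, was at 2.26 and 2.40 RPKM against 1.28 and 1.04. Its log2 change of -0.94 (SE 0.132, adjusted p = 2.24e-05) did not reach the fold limit, and it was -1.09 and past the limit without shM2-3 replicate 1.

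Of the antagonists in the named list, the secreted FST and NOG were lower. Genes outside that list, described below, did not share this direction. The secreted BMP antagonist NBL1 was higher (log2 change 3.96), and FSTL3, a relative of follistatin, was lower (-1.02). The extracellular regulators CHRDL1 and BMPER were higher (2.36) and lower (-1.42). FST (follistatin, chr5:53480626-53487134, plus strand), which binds and neutralizes activins, fell from 13.2 RPKM in each shCtl library to 2.45 and 1.34 in shM2-3, a log2 change of -2.72 (SE 0.169, adjusted p = 6.19e-09), or 6.58-fold. The ratio of INHBA to FST, both as RPKM, was 1.17 and 1.12 in shCtl and 10.4 and 20.5 in shM2-3. NOG (noggin, chr17:56593699-56595611, plus strand), which binds BMPs, was counted 143 and 140 times in shCtl against 26 and 25 times in shM2-3, or 3.19 and 3.07 against 0.474 and 0.504 RPKM. The log2 change of NOG was -2.61 (SE 0.267, adjusted p = 1.07e-06), 6.1-fold lower, and it reached the RPKM limit in shCtl only. GREM1, another BMP antagonist, had no reads in shCtl (0 counts in each library) against 3 and 2 counts in shM2-3, at or under a floor of 3 counts, so no fold is given. BAMBI, a membrane decoy receptor, was the antagonist of the named list that was called higher, at 1.54 and 1.79 RPKM against 3.12 and 3.54. Its log2 change of 1.06 (SE 0.216, adjusted p = 0.000587) fell under the fold limit without shCtl replicate 1 (0.96) and without shM2-3 replicate 2 (0.97).

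**Figure D2:**
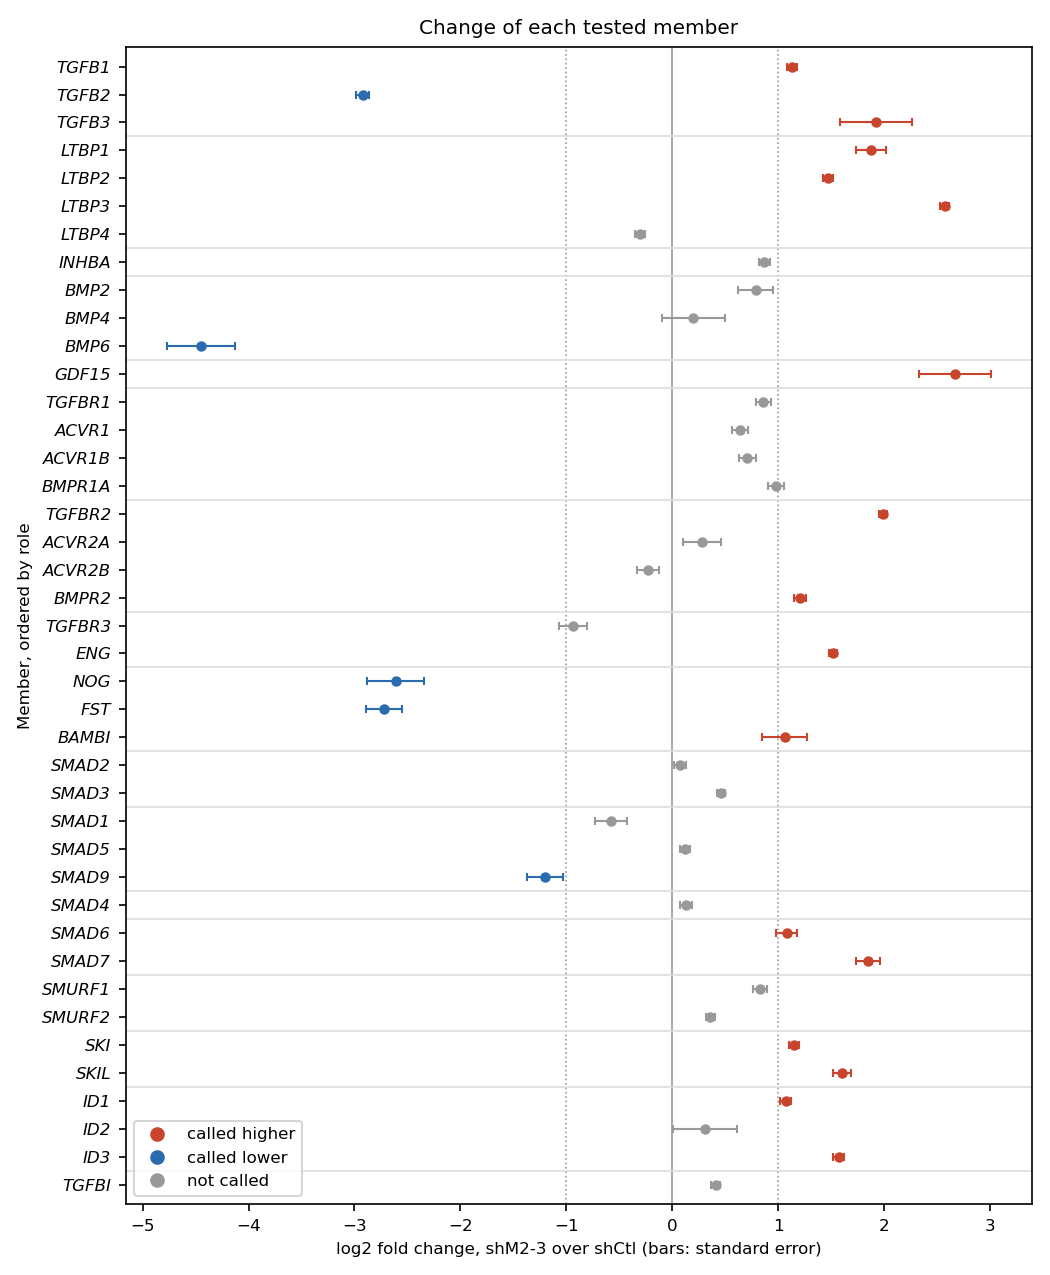
Log2 fold change of shM2-3 over shCtl for the 41 tested genes, in order of role, with bars of 1 standard error from edgeR and dotted lines at a 2-fold difference; called genes are red (higher) or blue (lower) and the others grey. BMP6 at -4.45 and TGFB2 at -2.92 are the lowest, and GDF15 at 2.67 and LTBP3 at 2.57 the highest.

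Of the receptor-regulated SMADs and SMAD4, SMAD9 was the only gene called. SMAD3, the SMAD of TGF-beta and activin that binds DNA directly, was the most abundant of the 46 genes in shCtl, at 89.8 and 89.6 RPKM, and stood at 118 in each shM2-3 library. Its log2 change was 0.46 (SE 0.0354, adjusted p = 5.62e-08). Its RPKM was 50 to 54.1 times that of SMAD2 in shCtl and 68.1 to 68.2 times in shM2-3. Their counts were closer, at 14470 and 14675 for SMAD3 against 1359 and 1492 for SMAD2 in shCtl. In shM2-3 the counts were 23191 and 21068 against 1730 and 1573. The RPKM ratio thus depends on the gene lengths used in the scaling, which were not checked. SMAD2 overlapped between groups, at 1.66 and 1.79 against 1.73 RPKM in each shM2-3 library (log2 change 0.07, SE 0.0582, adjusted p = 0.289). SMAD4, the partner of all receptor-regulated SMADs, was at 6.28 and 6.64 against 6.79 and 6.75 RPKM (log2 change 0.13, SE 0.0573, adjusted p = 0.0501). Of the BMP SMADs, SMAD5 was at 17.8 and 17.9 RPKM against 18.9 and 18.1, a log2 change of 0.12 (SE 0.0437, adjusted p = 0.0224). SMAD1 was lower without reaching the fold limit, at 2.63 and 3.21 RPKM against 2.06 and 1.68 (log2 change -0.58, SE 0.152, adjusted p = 0.0039). SMAD9 was called lower, with 243 and 235 counts against 132 and 98, or 1.85 and 1.76 against 0.824 and 0.676 RPKM. Its log2 change was -1.20 (SE 0.168, adjusted p = 2.18e-05), and it passed the RPKM limit in shCtl only, the group where it was high. SMAD5 was thus the BMP SMAD with the highest level in both groups.

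The inhibitors inside the cell that were in the named list were higher. Outside that list, 24 intracellular regulators were tested. By the adjusted p alone 4 were lower and 12 higher, beside 36.4% and 36.3% of all genes tested, and 8 did not pass. The 4 lower genes were DAB2, NEDD4L, TGIF2 and STRAP (log2 changes -1.07, -0.84, -0.35 and -0.24). SMAD7 (chr18:48919853-48950965, minus strand), which blocks the TGF-beta receptors and is itself a target of the pathway, was at 1.97 and 2.13 RPKM in shCtl and at 7.42 and 6.69 in shM2-3, a log2 change of 1.85 (SE 0.111, adjusted p = 4.46e-09), or 3.6-fold. SMAD6 (chr15:66702236-66782849, plus strand), which acts mainly on BMP signals, was at 3.0 and 2.88 RPKM against 5.92 and 5.96, a log2 change of 1.08 (SE 0.0967, adjusted p = 2.7e-07). The co-repressors SKI and SKIL, which bind SMADs on DNA, were both higher. SKI was at 10.1 and 10.7 RPKM against 21.6 and 22.4 (log2 change 1.15, SE 0.05, adjusted p = 1.49e-10), and SKIL at 4.78 and 4.22 against 14.2 and 11.8 (log2 change 1.60, SE 0.0855, adjusted p = 1.31e-09). SMURF1 and SMURF2, ubiquitin ligases that mark SMADs and receptors for degradation, passed the adjusted p under the fold limit, with log2 changes of 0.83 (SE 0.0663) and 0.36 (SE 0.0396). In all 6 inhibitors of the named list both shM2-3 libraries were above both shCtl libraries. Of the 46 genes, 42 had groups apart in 1 direction or the other, and the share over all genes was not computed.

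Of the ID genes, which encode inhibitors of basic helix-loop-helix factors and are classic BMP targets, ID1 and ID3 were higher. ID3 (chr1:23557926-23559501, minus strand) was at 47.2 and 49.2 RPKM in shCtl and at 136 and 138 in shM2-3, a log2 change of 1.57 (SE 0.0502, adjusted p = 5.63e-12), or 2.97-fold. ID1 (chr20:31605283-31606515, plus strand) was at 41.7 and 38.7 RPKM against 80.4 and 80.8, a log2 change of 1.07 (SE 0.0553, adjusted p = 8.94e-10). ID2 was at 1.41 and 1.68 RPKM against 1.75 and 1.93 and did not pass the test (log2 change 0.31, SE 0.305, adjusted p = 0.37), and ID4 had 0 to 2 counts in a library. TGFBI, a secreted matrix protein named for its induction by TGF-beta, was high in both groups, at 77.3 and 79.2 RPKM against 98.6 and 100. Its log2 change of 0.41 (SE 0.0407, adjusted p = 7.6e-07) was under the fold limit.

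The order of levels changed with these differences. In shCtl the order by mean RPKM began with SMAD3 (89.7 ± 0.171, SD, n = 2), TGFBI (78.3 ± 1.38), LTBP3 (75.0 ± 3.21), ENG (69.8 ± 2.08) and TGFB1 (59.7 ± 3.63). TGFBI and LTBP3, and LTBP3 and ENG, are neighbours that lay closer at their nearest libraries than the SD of LTBP3. In shM2-3 it began with LTBP3 (425 ± 3.39), ENG (191 ± 0.271), ID3 (137 ± 1.99), TGFB1 (125 ± 0.249) and SMAD3 (118 ± 0.283), and each of these was above the next by more than their SDs. TGFB2 moved from the 11th place to the 28th and BMP6 from the 28th to the 42nd.

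Other genes of the pathway, from a list of 84 of which 74 were in the tables and 46 were tested, were called lower in 3 cases and higher in 11, against the 8.93% and 9.24% of all genes given above. Their median log2 change was 0.27. The called genes were mostly extracellular regulators, with 2 lower and 8 higher of 16 tested, whereas 1 was lower and 1 higher of 24 intracellular regulators. Of the 43 genes with a library above 1 RPKM in each group, 2 were lower and 10 higher, and of the 14 extracellular regulators among them 1 was lower and 7 higher. The shares called among all genes with such libraries were not computed. None of the 3 other ligands tested was called by edgeR, and 1 of them passed the adjusted p. FSTL3, a relative of follistatin that also binds activin, was lower, at 7.21 and 6.43 RPKM against 3.53 and 2.88 (log2 change -1.02, SE 0.131, adjusted p = 9.95e-06). That call was lost without shCtl replicate 1 (-0.93) and without shM2-3 replicate 2 (-0.88). DAB2, an endocytic adaptor that binds TGF-beta receptors and SMADs, was lower, at 50.1 and 49.6 RPKM against 22.7 in each shM2-3 library (log2 change -1.07, SE 0.0422, adjusted p = 5.11e-11).

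Among the extracellular regulators that were higher, ITGB8 encodes a subunit of an integrin that releases TGF-beta from its latent form. It was at 0.352 and 0.479 RPKM in shCtl and at 6.33 and 6.04 in shM2-3, a log2 change of 3.96 (SE 0.111, adjusted p = 1.49e-12). ITGB8 passed the RPKM limit in shM2-3 only, and so entered the test through the group where it was high. ITGAV, its partner subunit, was named after its values were seen and was at 16.8 and 15.9 RPKM against 62.5 and 60.2 (log2 change 1.97, SE 0.0447, adjusted p = 1.74e-13). FURIN, the protease that cuts TGF-beta precursors, was named in the same way and was at 15.7 and 16.3 RPKM against 41.5 and 40.6 (log2 change 1.42, SE 0.0451, adjusted p = 5.16e-12). NBL1, a secreted BMP antagonist, was at 1.75 RPKM in each shCtl library and at 26.5 and 25.7 in shM2-3. Its log2 change was 3.96 (SE 0.0805, adjusted p = 6.06e-14), and because it shares exon sequence with MICOS10-NBL1 on the same strand its reads could be split between them. VASN, a membrane protein that binds TGF-beta, was at 1.39 and 1.82 RPKM against 10.3 and 11.2 (log2 change 2.81, SE 0.126, adjusted p = 2.09e-10). In these genes both shM2-3 libraries exceeded both shCtl libraries. Of the 74 genes of the list, 58 had groups apart in 1 direction or the other, and the share over all genes was not computed. The other called extracellular regulators, besides FSTL3, were also named after their values were seen. They were CHRDL1, BMP1 and BGN, which were higher (log2 changes 2.36, 2.34 and 1.82), and BMPER, which was lower (-1.42) and reached the RPKM limit in shCtl only.

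**Figure D3:**
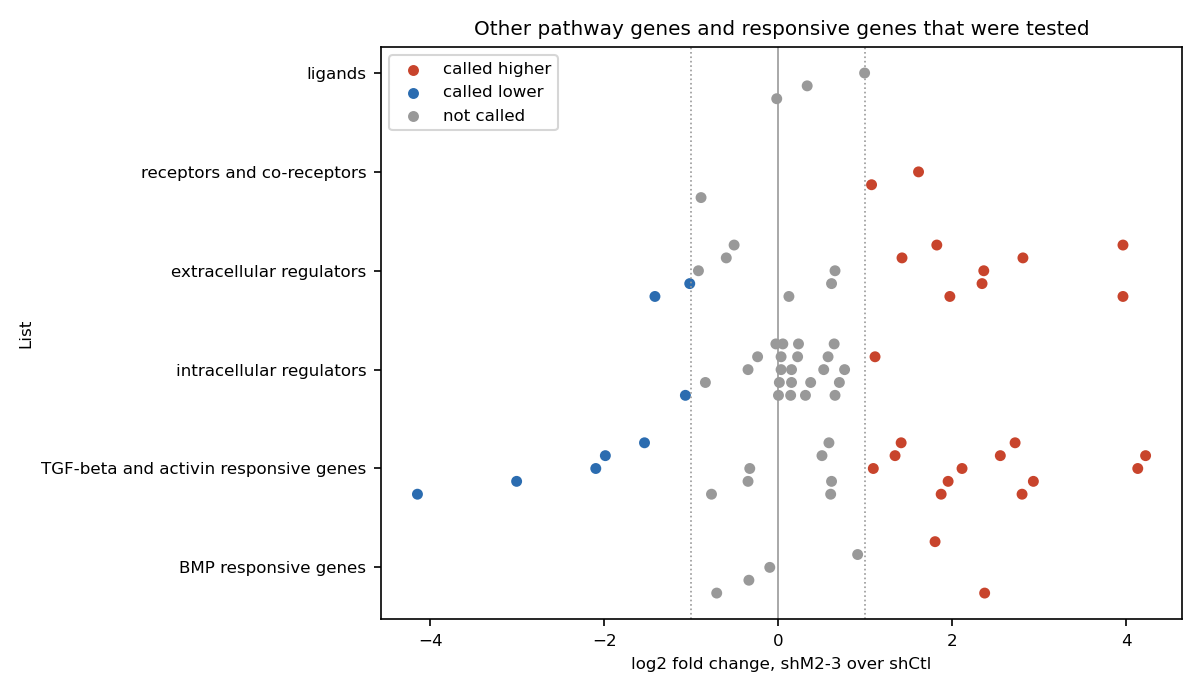
Log2 fold change of shM2-3 over shCtl for each of the 46 other pathway genes and 30 responsive genes tested, 1 point a gene in rows by role, red where called higher, blue where called lower and grey otherwise, with dotted lines at a 2-fold difference. The calls lie mostly among the extracellular regulators (2 lower, 8 higher) and the TGF-beta and activin responsive genes (5 lower, 12 higher), and the vertical offset within a row only separates the points.

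Genes known to respond to TGF-beta, activin or BMP were a list of 40, of which 37 were in the tables and 30 were tested, and 5 were called lower and 14 higher, where the shares of all genes tested were 8.93% and 9.24%. Their median log2 change was 0.76, and 28 had a library above 1 RPKM in each group, of which 4 were called lower and 13 higher. Again the shares called among all genes with such libraries were not computed. The classic TGF-beta targets did not share a direction. CCN2, a matricellular gene that responds to SMAD3 and that YAP1 with TEAD also regulates, was at 357 and 365 RPKM in shCtl and at 20.4 and 18.3 in shM2-3, a log2 change of -4.15 (SE 0.0513, adjusted p = 6.65e-16). PDGFB, a growth factor gene, was at 1.70 and 2.08 RPKM against 0.36 and 0.48 (log2 change -2.10, SE 0.243, adjusted p = 3.4e-06), and it reached the RPKM limit in shCtl only. PMEPA1, a TGF-beta target that restrains receptor-regulated SMADs, was higher, at 2.29 and 2.18 RPKM against 15.8 and 16.7 (log2 change 2.93, SE 0.0718, adjusted p = 3.65e-13). The matrix gene COL7A1 had 15 and 17 counts against 382 and 245 (log2 change 4.13, SE 0.262, adjusted p = 7.72e-09), and it reached the RPKM limit in shM2-3 only. FN1 (fibronectin) was at 178 RPKM in each shCtl library and at 3207 and 3146 in shM2-3, a log2 change of 4.22 (SE 0.0275, adjusted p = 1.58e-18).

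Of the 6 BMP responsive genes tested, 2 were called, both higher, where 9.24% of all genes tested were called higher. By the adjusted p alone 1 was lower and 3 higher, beside 36.4% and 36.3% of all genes tested, and 2 did not pass. The lower gene, GATA2, had a log2 change of -0.71 (SE 0.109, adjusted p = 5.28e-05). GATA2 and the 2 called genes were named after their values were seen. The homeobox gene DLX2 was at 1.88 and 2.21 RPKM in shCtl and at 10.3 and 9.94 in shM2-3 (log2 change 2.37, SE 0.119, adjusted p = 6.17e-10). ATOH8, a helix-loop-helix factor, was at 0.687 and 1.04 RPKM against 2.80 and 2.94 (log2 change 1.80, SE 0.165, adjusted p = 3.48e-07).

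The calls were compared across 11 other ways of processing the counts and RPKM. In all of them the tested genes kept the direction they had, counted over 449 values, and the call was lost in 9 and gained in 3. The genes whose call was lost were TGFB3, BAMBI, SMAD9, SMAD6 and ID1, all with the RPKM-based test and BAMBI also without either of the libraries named above.

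**Figure D4:**
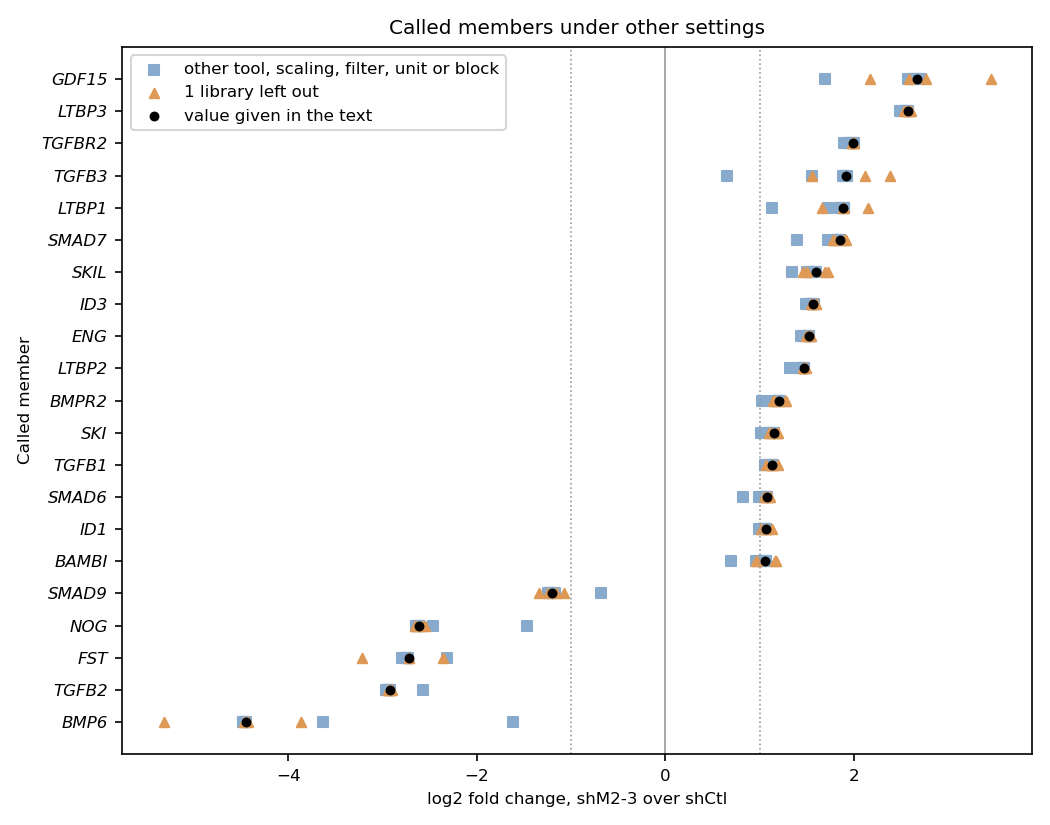
Log2 fold change of each of the 21 called genes as given in the text (black), with another tool, scaling, filter, unit or block (blue squares) and with 1 library left out (orange triangles), and dotted lines at a 2-fold difference. All values stay on their side of 0. With limma on log2(RPKM + 1), TGFB3 (0.65), SMAD9 (-0.68), BAMBI (0.70), SMAD6 (0.82) and ID1 (0.99) lie nearest to 0. That setting also moves BMP6, GDF15, NOG and LTBP1 toward 0, to -1.61, 1.69, -1.47 and 1.13.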

How the data were processed

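RNA-seq of ES-2 cells was analysed in 2 shCtl and 2 shM2-3 libraries, grouped by their labels. Per the labels and the study's methods, the authors aligned paired reads of 150 bases, from libraries that did not keep strand, to hg38 with HISAT2 2.0.4 and quantified RefSeq genes in Partek 7.18. The deposited table of estimated counts was left unnormalized by the authors, and 42.4% to 48.6% of a library's values are whole numbers. The deposited RPKM values scale them per length and library. Estimated counts were rounded, and edgeR 4.0.16 in R 4.3.3 (TMM, estimateDisp, glmQLFit, glmQLFTest, no block) was run over the 12157 genes that exceeded 1 RPKM in any library, with Benjamini-Hochberg adjustment. The script was tested on simulated data. The labels call the libraries biological replicates. With 2 per group the p-values measure the spread between these libraries, the SDs are rough, and the biological coefficient of variation was 0.0485. Same-numbered libraries did not deviate together.

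The members and gene lists were chosen with earlier results of these data known. Named were all members, and of the other lists the 3 lowest and 3 highest called genes whose higher group had 1 RPKM or more in each library, fewer where fewer passed. A few genes that this would name are left out. Alternatives were DESeq2 1.42.0, total counts, filterByExpr, no filter, limma 3.58.1 on log2 RPKM with pseudocounts of 0.1 and 1, the replicate block, other fold limits and each library left out in turn. Coordinates are from GENCODE release 44 on hg38. No protein sequence was used here.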

Additional observations from a re-analysis of the deposited data

How the results depend on the processing

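The 41 tested members kept their direction under every alternative. Called members numbered 5 lower and 16 higher, also with a replicate block (5 and 16), and 8 lower and 27 higher with no fold limit. The pairing of replicate numbers had a correlation of deviations of -0.0228, and the block changed no count of the 3 lists. Other pathway genes called lower, 3 as reported, were 5 with filterByExpr, 1 with limma on log2(RPKM + 1), 7 at a fold limit of 1.5, 10 with no fold limit, and 1 to 3 with a library left out. The low value came without shCtl replicate 1, where FSTL3 lost its call and BMPER was not tested. Those called higher, 11, were 18 at a fold limit of 1.5 and 25 with no fold limit. Responsive genes called lower, 5, were 9 with no fold limit. On log2(RPKM + 1), which draws low levels toward 0, TGFB3 (0.65), SMAD9 (-0.68), SMAD6 (0.82), ID1 (0.99) and BAMBI (0.70) lost their calls, and on log2(RPKM + 0.1) SMAD6 (0.99) and BAMBI (0.96). The cause of the other changes was not tested. Without a filter, INHBE, one of the 5 untested members, had a log2 change of -1.14 (edgeR adjusted p = 0.0185), and the other 4 did not pass. Counts of genes at the RPKM limit carry counting error, and intervals were not computed.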
